A study of Caenorhabditis elegans with 20 samples.

Results

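The arms of Caenorhabditis elegans chromosome III are the 2 outer parts of an autosome whose middle is called the centre. They were taken by position alone, as all 1 kb bins that start between 494001 and 3721001 (left arm) or between 10340001 and 13216001 (right arm) of III in build WBcel215, with the chromosome tips left out. The left arm holds 3228 bins and the right arm 2877, together 6105 of the 100269 nuclear bins, or 6.09%. The study asked where the lysine 27 to methionine change of the histone variant H3.3 alters H3K27me3, and the arms are described here by native chromatin immunoprecipitation (ChIP) of mononucleosomes from total nuclei of young adult worms grown at 20 °C, a preparation enriched for germ cell nuclei. For H3K27me3 there were 6 strains, with 1 IP and 1 input library each. Wild type is N2. H3.3K27M is FAS58, with the allele uge40 (K27M) at the endogenous his-72 locus on III, which is 1 of several H3.3 genes. H3-like is FAS100, with allele uge67 of his-72, labelled A87S, A88V, I89A and G90M. H3-like K27M is FAS104, allele uge68, labelled with K27M and these 4 substitutions. The study describes the change as the AAIG motif of H3.3 exchanged for SAVM of canonical H3, which the labels A88V and I89A do not match. The duplication strain is CGC42, with mnDp10 [umnls31] (X;I) and unc-3(e151), and duplication H3.3K27M is FAS93, with the same duplication, unc-3(e151) and uge40. OLLAS, an epitope tag, was assayed in FAS107 (H3.3 OLLAS, allele uge69) and FAS119 (H3.3K27M OLLAS, allele uge79), and H3K36me3 in wild type and H3.3K27M. In every mutant the change is carried in all cells, not in germ cells alone.

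H3K27me3 is laid down by the Polycomb repressive complex PRC2 and marks silenced chromatin, while H3K36me3 marks the bodies of genes transcribed in the germ line and opposes PRC2. H3.3 is put into chromatin outside replication, mostly where nucleosomes turn over, and its K27M form is known as an oncohistone that binds and hampers PRC2. The arms of worm autosomes recombine more, hold more repeats and fewer essential genes than the centres, and touch the nuclear envelope.

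Values are of 2 kinds. The log2 IP/input ratio per 1 kb or 10 kb bin is negative where a mark is depleted against input. The input-subtracted signal, in scaled reads per 100 bp bin, is the only track used here for all 6 H3K27me3 strains. Whole reads recovered from it gave for H3K27me3 arm medians between 20 and 192 IP reads and between 40 and 281 input reads (per bin of 100 bp). Wild type was the deepest. In the left and right arm duplication H3.3K27M had 26 and 24 IP reads, and H3-like had 37 and 20. All tracks are scaled to the same number of reads, so a level on the arms is relative to the rest of the genome. Over chromosome X the mean signal was 41.2, 25.0 and 34.3 scaled reads in wild type, H3-like and duplication, and 141.0, 165.7 and 121.5 in their K27M partners. The median log2 of all bins was 0.28 in wild type and -0.84 in H3.3K27M.

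In wild type H3K27me3 in most bins of the arms of III took 1 of 2 states, near a log2 of 0.3 or below -2. Between -2 and 0 lay 16.0% of left-arm and 14.6% of right-arm bins. The left arm had a median of 0.00 (95% interval of the median -0.05 to 0.06, quartiles -2.62 and 0.33), with 49.97% of its bins above 0 and 34.0% below -2. The right arm had a median of -1.34 (-1.68 to -0.91, quartiles -2.82 and 0.26), with 39.6% above 0 and 45.7% below -2. Both arms thus had fewer marked bins than the 68.1% of all bins, which include X at 91.2%. The centre of III had 50.2% above 0, the left arm of I 41.3%, and the arms of I, II, IV and V together 66.5%. The right arm had the lowest median of the 10 autosomal arms while the left arm had rank 3 from the bottom. H3-like gave nearly the same picture, with medians of -0.17 and -1.29, with 42.1% and 34.6% of bins above 0 (64.3% of all bins), and a Pearson r with wild type across 1 kb bins of 0.97 on the left and 0.96 on the right. These correlations are descriptions over neighbouring, smoothed bins of single libraries.

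**Figure D1:**
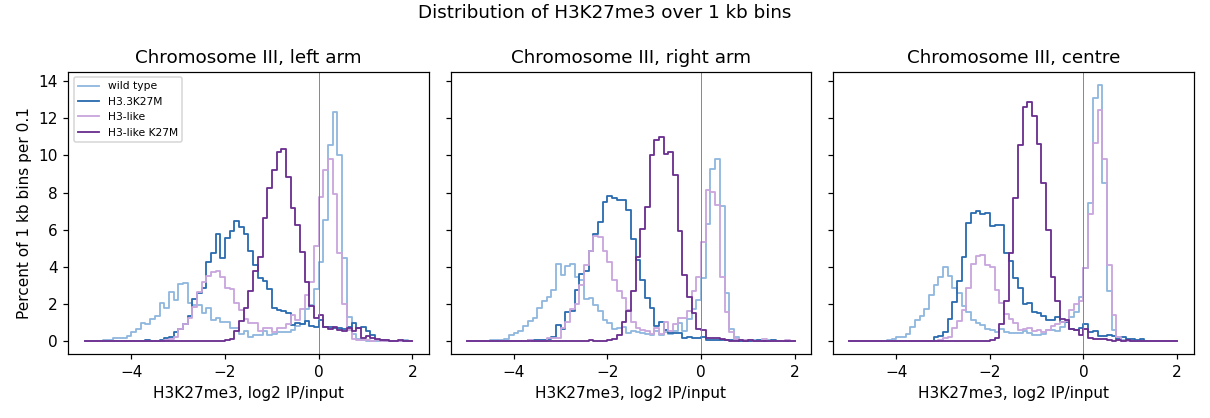
Share of 1 kb bins of the left arm, the right arm and the centre of III (y axis, percent per step of 0.1) by H3K27me3 log2 IP/input (x axis) in 4 strains, each 1 library pair. Wild type and H3-like have a peak near 0.3 and a broad peak below -2, whereas H3.3K27M and H3-like K27M have a single main peak below 0, with medians of -1.68 and -0.78 on the left arm.

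The marked and unmarked states alternated in blocks of kilobases to over 100 kb. On the left arm 48 runs of bins above 0 were at least 10 kb long and held 40.2% of the arm, and on the right arm 35 such runs held 30.7%. The longest marked runs lay at 1265001 to 1366000 (101 kb) and 704001 to 774000 (70 kb) on the left arm. Those of the right arm lay at 12982001 to 13061000 (79 kb) and 12749001 to 12808000 (59 kb). The longest unmarked runs were longer still, at 1448001 to 1593000 (145 kb) and 2124001 to 2214000 (90 kb) on the left, with median log2 values of -2.82 and -3.28. Those of the right arm covered 11234001 to 11345000 (111 kb) and 11893001 to 12001000 (108 kb), at -2.91 and -2.60.

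With K27M the input-subtracted H3K27me3 signal of both arms of III was lower in all 3 strain backgrounds. The mean signal of the left arm was -14.9 scaled reads per 100 bp bin for wild type and fell to -57.6 with K27M. For the H3-like background it went from -22.3 to -39.8, and for the duplication background from -29.6 to -47.9. The strains with K27M were all below those without, with group means of -48.5 ± 8.92 and -22.3 ± 7.37 (SD, n = 3), a difference of -26.2 (two-sided exact permutation test over strains, p = 0.1, the smallest that 3 against 3 can give). For the right arm the mean was -28.0, -31.1 and -43.6 without K27M in the same order, and -73.7, -47.8 and -59.1 with it. These groups did not overlap either, at -34.2 ± 8.26 and -60.2 ± 13.0 (SD, n = 3), and the difference of -26.0 had p = 0.1 in the same exact test. The direction rests on the scaling and the scale. On the mean log2 ratio of recovered reads the H3-like pair turned, from -0.75 to -0.73 on the left and from -1.03 to -0.87 on the right, and with differences of -0.37 and -0.34 the groups overlapped (exact p = 0.2 left and 0.4 right). After each track was centred on its own median over all bins, the arms lay 19.7 (left, exact p = 0.1) and 19.9 scaled reads (right, exact p = 0.2) higher with K27M.

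How far left and right arm differed from each other in this loss depended on the summary. By means, the left arm minus the right arm was 11.9 ± 2.79 scaled reads without K27M and 11.8 ± 4.07 with it (SD, n = 3), a difference of -0.184 (exact permutation test, p = 1.0). By medians over bins the same difference was -14.9 and the groups did not overlap (exact p = 0.1). Against the centre of III, both arms lay higher with K27M than without it. The left arm minus the centre was 6.26, 0.276 and -10.7 in wild type, H3-like and duplication and 17.7, 21.3 and 16.6 in their K27M partners, a rise of 19.9 without overlap (exact p = 0.1). For the right arm this contrast was -6.86, -8.49 and -24.6 without K27M and 1.59, 13.3 and 5.38 with it, a rise of 20.1 (exact p = 0.1). Centring does not enter these contrasts, which are taken within a track. Against the pooled arms of I, II, IV and V both arms fell further in each of the 3 pairs. With group differences of -14.5 (left) and -14.3 (right) the groups overlapped, however (exact p = 0.3 for each). The pooled arms were unlike each other. The left arm of IV went from -8.89, -17.8 and -27.6 without K27M to -62.6, -44.3 and -52.6 with it. The left arm of V went from 25.9, 13.5 and 12.0 to 42.4, -20.9 and 33.7. The arms of III thus did not fall further than every other arm.

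**Figure D2:**
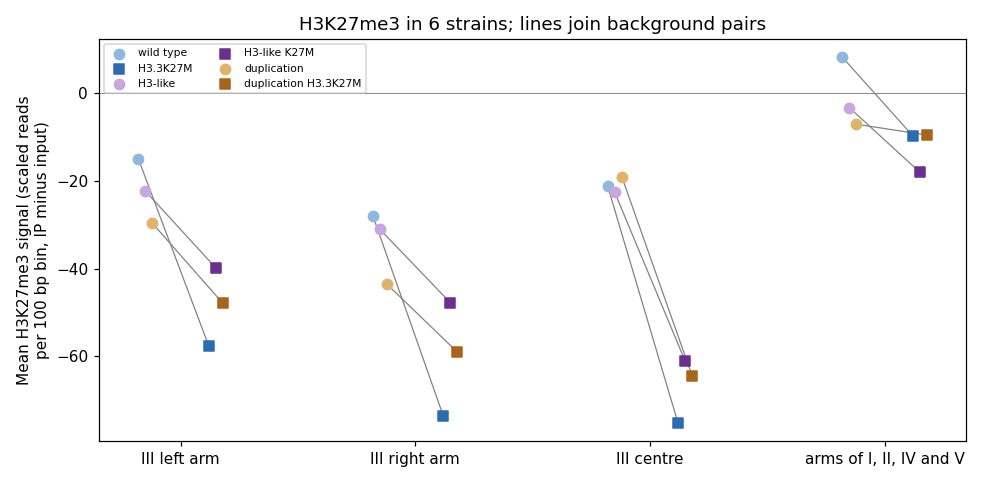
Mean H3K27me3 signal (y axis, scaled reads per 100 bp bin, IP minus input) of the left arm, right arm and centre of III and of the arms of I, II, IV and V, 1 point per strain, with lines joining each strain without K27M (circles) to its K27M partner (squares). On both arms of III the 3 squares, -57.6 to -39.8 on the left and -73.7 to -47.8 on the right, lie below the 3 circles.

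The loss was seen mainly in bins that carried the mark in wild type, which had most IP signal to lose. Of the 1 kb bins above 0 in wild type, 1613 lay on the left arm and 1140 on the right. In these the left arm mean went from 40.5 to -35.9 in the wild-type background, from 15.7 to -26.1 in the H3-like background and from 19.7 to -32.0 in the duplication background. Their right-arm counterparts went from 38.4 to -67.2, from 16.3 to -41.8 and from 11.1 to -54.9. Every pair fell by at least 41.8 scaled reads. Since wild type chose the bins, only the H3-like and duplication pairs are free of that choice. In the remaining bins, at or below 0 in wild type, H3.3K27M minus wild type was -9.1 on the left and -6.4 on the right, whereas the H3-like pair differed by 6.7 and 10.4 and the duplication pair by 15.1 and 17.6. On the left these bins held medians of 46, 13 and 24 IP reads in wild type, H3-like and duplication. Bins above 0 held 368.5, 73 and 97. With so few IP reads, a fall of like size could hardly appear in the remaining bins. How far this floor set the contrast was not tested.

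On the log2 scale the 2 kinds of bin moved towards each other. Bins above 0 in wild type had a median change of -1.52 on the left and -1.86 on the right in H3.3K27M, and of -0.82 and -0.93 in H3-like K27M against H3-like. Bins below -2 in wild type had changes of 0.72 and 0.70, and of 1.18 and 1.25. In these bins H3-like, which has no K27M, also lay 0.72 and 0.66 above wild type. Left-arm bins at or below 0 had 46 IP and 271 input reads per 100 bp bin in wild type and 49 and 225 in H3.3K27M, 13 and 89 for H3-like, and 71 and 113 for its K27M partner. The part of these reads in the changes was not tested.

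The overall log2 change of the arms differed between the pairs. Over all bins H3.3K27M minus wild type had a median of -0.70 on the left arm (95% interval -0.80 to -0.55) and -0.54 on the right (-0.76 to -0.33), with arm levels of -1.68 and -1.87 in H3.3K27M. H3-like K27M minus H3-like had a median of -0.19 on the left (-0.25 to -0.09) and 0.35 on the right (0.05 to 0.58), from levels of -0.17 and -1.29 to -0.78 and -0.85. In the centre of III both pairs fell, by 1.06 and 0.86. Relative to the shift of each track's median over all bins, the changes of the H3.3K27M pair reversed, to 0.43 and 0.58, and those of the H3-like pair were 0.76 and 1.30. Judged by a change of 1.03, which 95% of all bins did not exceed between H3-like and wild type, 44.0% of left-arm and 45.7% of right-arm bins were lower in H3.3K27M (28.2% of all bins), and 8.86% and 12.1% were higher (6.15% of all bins). In H3-like K27M 15.3% and 15.8% were lower (26.7% of all bins) and 25.0% and 35.9% were higher (19.1% of all bins). Between H3-like and wild type, which both lack K27M, 8.7% of left-arm and 9.4% of right-arm bins were higher by this change (4.85% of all bins). Only 0.19% and 0.21% were lower. The left-arm share higher in H3.3K27M was thus close to that seen without K27M, and the right-arm share of 12.1% was somewhat above it. Both comparisons subtract the same wild-type library, and the change of 1.03 was itself taken from H3-like and wild type. The 2 shares are therefore not independent. These counts compare single libraries and carry no p.

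Across 10 kb bins, limma on the 6 input-subtracted tracks, with Benjamini-Hochberg adjustment over all 10024 bins at 0.05, called 157 of 322 left-arm bins (48.8%) and 134 of 287 right-arm bins (46.7%) lower with K27M, where 37.9% of all bins were called lower. Lower calls made up 65.7% of bins in the centre of III and 38.4% on the arms of I, II, IV and V. Higher calls numbered 6 on the left arm and 0 on the right, where 20.7% of all bins, X included, were called higher. The centre of III also had 0, of 661 bins, and the arms of I, II, IV and V had 8.84%. The right-arm count of 0 holds for this limma fit also at an unadjusted p under 0.05. On the log2 ratio of the recovered reads limma called 35 bins higher on the left and 32 on the right (22.2% of all bins). On tracks centred on their medians the counts were 19 lower and 168 higher on the left, and 7 lower and 150 higher on the right. The higher calls were 52.2% and 52.3% of the arms, near the 52.1% of all bins, and 5.23% of all bins were lower. Without the duplication pair the left arm had 103 lower and 1 higher (26.5% and 19.3% of all bins). Without the wild type pair it had 2 higher (18.9% of all bins). The 1 higher call without the duplication pair was not among the 6. The called falls had a median of -61.9 scaled reads on the left arm and -69.4 on the right. All 3 background pairs were lower in 183 left-arm bins (56.8%) and 148 right-arm bins (51.6%), beside 46.2% of all bins, and all 3 were higher in 76 and 88, or 23.6% and 30.7%, beside 31.5%.

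The 2 largest falls of each arm were of like size on both arms, with smaller standard errors on the left. In the left-arm bin 760001 to 770000 the signal was 46.3, 23.3 and 28.1 without K27M (wild type, H3-like, duplication) and -73.1, -64.2 and -66.5 with it, a difference of -100.5 ± 8.89 (SE, limma adjusted p = 0.000554). The bin lies in the 70 kb marked run named above. In the bin 3680001 to 3690000, at the inner end of the left arm, the difference was -99.8 ± 9.86 (SE, limma adjusted p = 0.000554). The right-arm bin 10630001 to 10640000 had 62.6, 18.5 and -24.2 without K27M and -102.1, -81.8 and -77.4 with it, a difference of -106.0 ± 21.8 (SE, limma adjusted p = 0.00532). Here the strains without K27M differed widely, and duplication was already below 0. In the bin 10970001 to 10980000 the difference was -96.0 ± 20.2 (SE, limma adjusted p = 0.00589). Both right-arm calls ended under quantile normalization (limma adjusted p = 0.0709 and 0.166) and on centred tracks (limma adjusted p = 0.0644 and 0.122), and the second also without the wild type pair (limma adjusted p = 0.0522).

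A few bins of the left arm went the other way. The 6 bins called higher lay at 3 separate places, with 1 bin at 940001, 3 adjoining bins from 1270001 and 2 from 1350001. Without the duplication pair none of the 6 remained called, and without the wild type pair, under quantile normalization, on the log2 ratio of recovered reads or with a trended, robust limma fit 2 of them remained in each case. In the bin 1350001 to 1360000 the signal was 50.3, 25.8 and 22.9 without K27M and 100.4, 82.6 and 80.1 with it, a rise of 54.7 ± 10.8 (SE, limma adjusted p = 0.00449) in which the groups did not overlap. In the bin 1270001 to 1280000 it was 46.8, 37.9 and 60.5 without K27M and 111.7, 73.3 and 108.6 with it, a rise of 49.5 ± 12.9 (SE, limma adjusted p = 0.0150). Under quantile normalization neither rise passed (limma adjusted p = 0.515 and 0.266) and the second reversed to -24.3. Without the duplication pair neither passed either (limma adjusted p = 0.0528 and 0.0821). The second also failed without the wild type pair (limma adjusted p = 0.135) and on the log2 ratio of recovered reads (limma adjusted p = 0.110). Both bins belong to the longest marked run of the left arm, at 1265001 to 1366000. Over this run the median log2 was 0.43 in wild type and 0.76 in H3.3K27M, while the H3-like pair had 0.39 without and 0.41 with K27M. The first 42 kb, 1265001 to 1307000, were the longest run above 0 in both wild type and H3.3K27M, at 0.45 and 0.97, with 0.43 and 0.81 in the H3-like pair. By contrast the other long run, at 704001 to 774000, went from 0.37 to -0.91 and from 0.22 to -0.75.

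Bins that kept the mark were more frequent on the left arm than on the right. Above 0 in both wild type and H3.3K27M were 275 left-arm bins, or 8.52% (95% Wilson interval 7.61% to 9.53%), and 15 right-arm bins, or 0.521% (0.316% to 0.859%). The share was 3.37% in the centre of III and 32.2% on the pooled arms of I, II, IV and V. Of all bins, 37.7% were above 0 in both and 39.4% in H3.3K27M. Above 0 in H3.3K27M were 8.61% of left-arm and 0.591% of right-arm bins. The left arm of I had 0.841%, the left arm of IV 6.45% and the right arm of II 9.27%. The rest of the autosomal arms had 24.4% (right arm of I) to 61.7% (left arm of V). Low shares were thus not particular to the arms of III. Of the 275 left-arm bins 168 (61.1%) fell within the 475 kb from 917001 to 1392000. Above 0 in H3-like K27M were 7.31% of left-arm and 1.22% of right-arm bins (25.2% of all bins). Of the 236 such bins of the left arm, 187 were among the 275, which is 79.2% of the former and 68.0% of the latter. Above 0 in H3.3K27M only were 3 bins on the left arm (0.0929%) and 2 on the right (0.0695%), beside 1.63% of all bins and 0.345% of autosomal bins outside the arms of III. No shared marked run of the right arm exceeded 4 kb. Intervals treat bins as independent, which smoothed neighbouring bins are not, and cover counting error only.

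**Figure D3:**
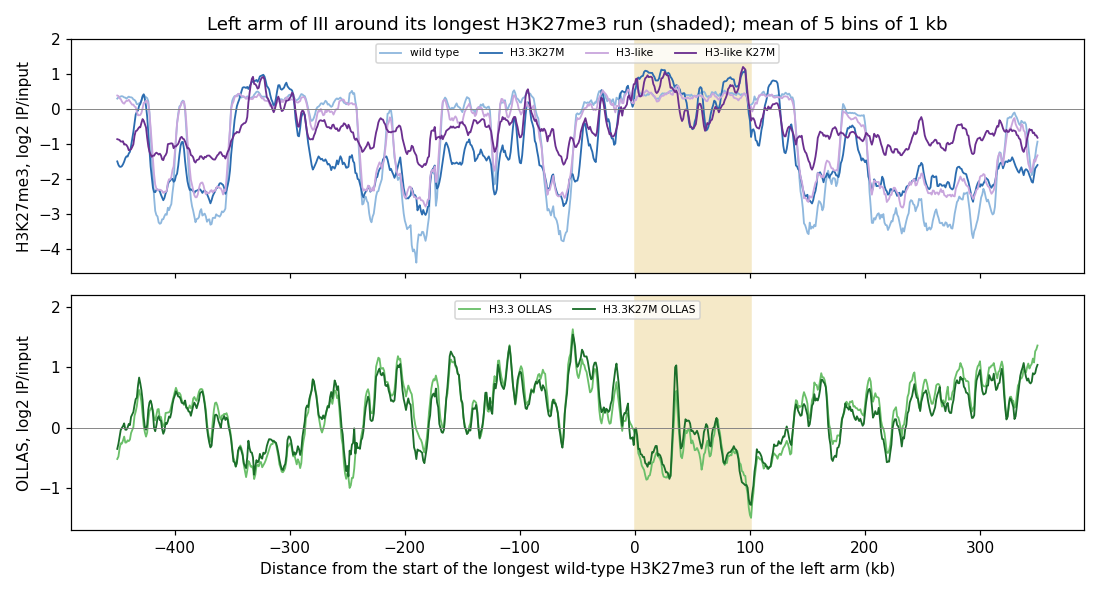
H3K27me3 (upper) and OLLAS (lower) log2 IP/input (y axes, means of 5 bins of 1 kb) against distance in kb from the start of the 101 kb marked run of the left arm (shaded). H3.3K27M and H3-like K27M lie above 0 over much of the run, with medians of 0.76 and 0.41, where both OLLAS tracks are mostly below 0, with medians of -0.51 and -0.41.

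H3.3 itself was high on the arms of III. The H3.3 OLLAS median was 0.27 on the left arm (quartiles -0.17 and 0.63) and 0.29 on the right (-0.05 and 0.65), against 0.00 in the centre of III and -0.09 on the arms of the other autosomes. Of the 10 autosomal arms, counted from the lowest median, the right arm of III had rank 9 and the left arm rank 8, below the left arm of I at 0.31. H3.3K27M OLLAS had medians of 0.27 and 0.29, and minus H3.3 OLLAS the median change was 0.00 on the left and -0.02 on the right, with r between both tracks of 0.92 and 0.91. High and low bins of both tagged proteins thus fell at nearly the same places in these single libraries.

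H3.3 and H3K27me3 were weakly and negatively related across bins, and not in steady steps. Across 1 kb bins r between wild-type H3K27me3 and H3.3 OLLAS was -0.27 on the left, -0.17 on the right and -0.39 in the centre of III. Between H3.3K27M and H3.3K27M OLLAS r was -0.32 and -0.08. The bins above 0 in both wild type and H3.3K27M had a median H3.3 OLLAS of -0.51 on the left arm and -0.54 on the right. When left-arm bins were split by H3.3 OLLAS into 3 equal parts, the lowest part had an H3K27me3 median of 0.30 in wild type and the highest -1.41. For the right arm these were 0.17 and -2.02, and the middle part also had -2.02. Bins between -2 and 0 in wild type had the highest H3.3 OLLAS medians, 0.56 on the left and 0.60 on the right, above the 0.40 and 0.36 of bins below -2 and the 0.02 and 0.11 of bins above 0. In H3.3K27M the lowest and highest parts by H3.3 OLLAS had H3K27me3 medians of -1.17 and -1.88 on the left, and -1.66 and -1.99 on the right.

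Single windows of 10 kb showed the range. The highest H3.3 OLLAS means were 1.34 at 1920001 to 1930000 on the left arm and 1.22 at 11470001 to 11480000 on the right, where wild-type H3K27me3 averaged -1.43 and -0.28. The lowest were -1.12 at 1360001 to 1370000 on the left and -0.63 at 10970001 to 10980000 on the right. The first of these spans the end of the 101 kb run at 1366000 and is 1 of the 6 bins called higher for H3K27me3. It rests on 14 IP and 22 input reads per 100 bp bin (H3.3 OLLAS medians), where the left arm had 281 and 183. The second is the right-arm bin with the second largest fall of H3K27me3, at 0.40 in wild type and -1.40 in H3.3K27M.

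**Figure D4:**
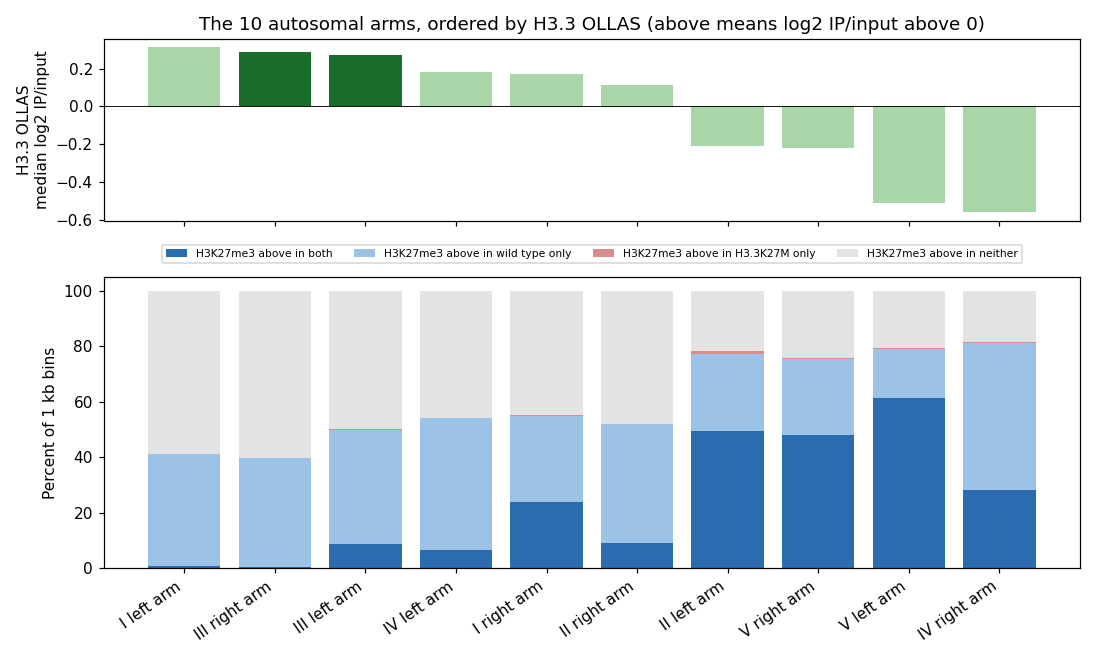
Upper, median H3.3 OLLAS log2 IP/input (y axis) of the 10 autosomal arms, with the arms of III in dark green at 0.29 (right) and 0.27 (left). Lower, percent of 1 kb bins with H3K27me3 log2 above 0 in wild type, H3.3K27M, both or neither, in the same order of arms, where the right and left arm of III have 0.521% and 8.52% above 0 in both.

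H3K36me3 was near input level over both arms. The 10 kb medians in wild type were 0.09 on the left (quartiles -0.19 and 0.37) and 0.07 on the right (-0.20 and 0.35), beside 0.00 in the centre of III. In H3.3K27M they were -0.13 and -0.01. Bin by bin the median change was -0.22 on the left arm (95% interval -0.30 to -0.06) and 0.09 on the right (0.00 to 0.18), with 0.17 in the centre of III and -0.20 on the arms of the other autosomes. Against H3K27me3 of the same strain, r across 10 kb bins was -0.13 on the left and -0.50 on the right in wild type, and -0.30 and -0.59 in H3.3K27M, where the centre of III had -0.74 and -0.62. With 1 library pair per strain and 32 to 39 IP reads per 100 bp bin, none of these was tested.

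Along each arm, by distance from its border with the centre, the H3K27me3 levels showed no steady course. In steps of 500 kb the wild-type median on the left arm ranged from -0.35 (1000 to 1500 kb from the border) to 0.25 (the outermost 228 kb). The right arm alternated more widely, from -2.41 (2000 to 2500 kb) to 0.01 (1000 to 1500 kb and the outermost 377 kb). H3.3K27M was flatter on the right, between -1.98 and -1.73, and on the left its highest step was -1.22 at 2000 to 2500 kb, the step that holds the 101 kb run. In that step the mean signal was -8.38, -13.7 and -16.6 without K27M and -24.6, -18.7 and -19.8 with it, a gap between the group means of -8.18, where the other 12 steps had -58.1 to -15.3. H3.3 OLLAS medians stayed above 0 in every step of both arms, from 0.03 to 0.48.

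**Figure D5:**
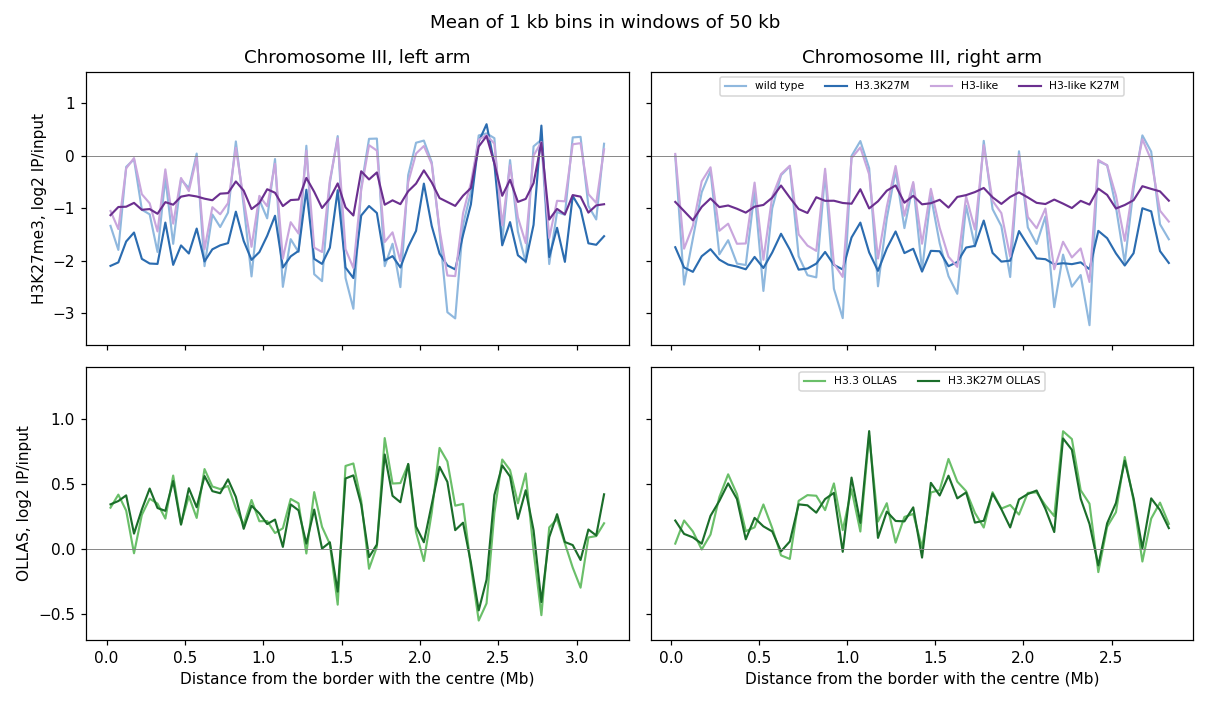
H3K27me3 (upper) and OLLAS (lower) log2 IP/input (y axes, means of 50 kb) against the distance in Mb from the border with the centre (x axes) for the left and right arm of III, 1 line per strain. The marked and unmarked blocks of wild type and H3-like give way to flatter profiles with K27M, except at narrow peaks in the outer part of the left arm, and both OLLAS lines run together.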

How the data were processed

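Native ChIP-seq tracks of 20 libraries (10 IP and 10 input) were used. Per the study's methods, the authors aligned reads with Novoalign to WBcel215, took the maximum number of reads per bin, scaled libraries to the same number of reads, and merged replicates that passed their quality control at the level of aligned reads. The authors deposited log2 IP/input values in 1 kb and 10 kb bins. They also deposited an input-subtracted score in scaled reads per 100 bp bin. Of the deposited columns 4, those of both oncohistone tracks, matched no sample label and were not used here. Sequences and gene annotation of WBcel215 were not used here, so no gene is named by position.

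The members, lists and tests were chosen with earlier results of these data known. Arm limits of I, II, IV and V were set after a published recombination map and could not be checked against a source used here, so ranks among arms and contrasts with the other arms rest on unchecked limits. IP and input reads were recovered from the input-subtracted score as the smallest whole numbers within a tolerance of 2e-08, which succeeded for at least 99.98% of bins. Arm means were compared over strains by two-sided exact permutation tests, which cannot go below p = 0.1. Mean scores of 10 kb bins were fitted with limma 3.58.1 (R 4.3.3) on all 10024 bins, with Benjamini-Hochberg adjustment at 0.05, and the fit was tested on simulated data. The 3 strain backgrounds served as replicates within each group, with and without K27M, since each strain has 1 library pair. P-values thus measure the spread between strains of unlike genotype. H3.3K27M and duplication H3.3K27M share the allele uge40. Other values were computed with numpy 2.4.6, pandas 2.3.3 and scipy 1.17.1. Regions named were, per arm, the 2 largest rises and falls past the limma threshold with the same direction in 3 pairs, the 2 longest marked and unmarked runs, the longest run above 0 in both wild type and H3.3K27M, and the 10 kb windows with the highest and lowest H3.3 OLLAS. The stretch from 917001 to 1392000 and the other bins called higher were chosen after their values were seen. Alternatives were centring or quantile normalization of tracks, log2 ratios of recovered reads (1 scaled read added), medians or means, other limits of the arms, other bins and thresholds, leaving out each background pair, and the background pair as a block.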

Additional observations from a re-analysis of the deposited data

Results flagged for a closer look

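On the right arm the median log2 change of H3K27me3 had opposite signs in the 2 backgrounds with 1 kb log2 tracks, at -0.54 for H3.3K27M minus wild type and 0.35 for H3-like K27M minus H3-like. On the input-subtracted scale both pairs were lower on this arm, by -45.7 and -16.8 scaled reads per 100 bp bin. The difference between the backgrounds was not tested, since each strain has 1 library pair.

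The left arm minus the right arm moved in different directions with K27M in the 3 backgrounds. It changed by 2.97 scaled reads per 100 bp bin from wild type to H3.3K27M, by -0.769 from H3-like to H3-like K27M, and by -2.75 from duplication to duplication H3.3K27M. This difference between backgrounds was not tested either, and each change was below the SD of 4.07 between the strains with K27M.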

How the results depend on the processing

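Depth limits the unmarked bins most, where H3-like had medians of 13 (left) and 12 (right) IP reads per 100 bp bin. With 1 library pair per strain no log2 level has an error between cultures. The exact tests cannot pass a threshold of 0.05 in this design and so say nothing of stability. On the log2 ratio of recovered reads p went from 0.1 to 0.2 (left) and 0.4 (right) for the arm means, and with medians over bins from 1.0 to 0.1 for the left minus the right arm (-14.9). The labels share no replicate numbers between groups. With the background pair as a replicate block, the exact sign-flip test of the arm means gave p = 0.25, the smallest it allows. With this block limma called 145 left-arm and 122 right-arm bins lower (36.2% of all bins) and 5 and 0 higher (21.3% of all bins). No arm count changed by over 1.5 times.

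Centring tracks on their medians turned the arm mean differences to 19.7 (left) and 19.9 (right), the log2 change of the H3.3K27M pair to 0.43 and 0.58, and that of the H3-like pair to 0.76 and 1.30. It also turned the OLLAS change to -0.015 (left) and moved it to -0.036 (right), and moved the right-arm H3K36me3 change to 0.21. Called 10 kb bins on the left arm were 19 lower and 168 higher after centring and 33 and 68 after quantile normalization. On the right arm they were 7 and 150, and 18 and 88. Of all bins, 5.23% were lower and 52.1% higher after centring, and 13.8% and 17.7% after quantile normalization. The log2 ratio of recovered reads gave 35 and 32 higher calls (22.2% of all bins). Under quantile normalization the rise of the bin at 1270001 became -24.3.

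With medians over bins in place of means, the arms minus the arms of other autosomes turned to 0.0389 (left) and 14.9 (right). With the tips counted, the left minus the right arm turned to 2.52. The mean of bins moved the left-arm log2 change to -0.55 in the H3.3K27M pair and turned it to 0.052 in the H3-like pair. The 10 kb log2 tracks gave -0.84 and -1.06 for H3.3K27M. Input-subtracted OLLAS changes were -7.51 and -11.9 scaled reads, and those of H3K36me3 -14.2 and 3.84. With the threshold at each track's median, bins above in both made up 14.3% and 2.57%, and in wild type only 16.9% and 20.5%.

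The r of wild-type H3K27me3 with H3.3 OLLAS over 10 kb means was -0.41 (left) and -0.31 (right), and on input-subtracted tracks -0.21 (right). For H3.3K27M it was -0.45 and -0.15 over 10 kb, and -0.21 and -0.32 on input-subtracted tracks.

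Leaving out each background pair in turn, the arm mean differences ranged from -30.5 to -17.9 (left) and from -31.2 to -16.1 (right), and the arm minus centre contrasts from 16.2 to 24.1 and from 15.1 to 25.9. The contrasts with the other arms ranged from -20.3 to -9.3 and from -20.4 to -7.54, and the left minus the right arm from -1.76 to 1.10, above 0 without the H3-like pair (0.108) or the duplication pair (1.10). Lower calls ranged from 103 to 165 on the left and from 99 to 137 on the right, and higher calls from 1 to 7 and 0 to 0. Of all bins, 26.5% to 38.1% were called lower and 18.9% to 29.1% higher. The left arm fell to 103 lower and 1 higher without the duplication pair and 2 higher without the wild type pair.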
